A study of Homo sapiens with 6 samples.

Results

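The genes described here are 45 genes that carry cells through the G2 phase and mitosis, from the cyclins that start it to the proteins that part the daughter cells. They were listed by name, with earlier results of these data known but no measured value used in the rule, and every probe set whose platform annotation gives 1 of these names and no other was taken. That gave 87 of the 54613 probe sets on the array that are not controls, and the 45 genes stand among 19775 genes with such a probe set. RNA levels were compared in K562, an established human line from a chronic myelogenous leukaemia that carries the BCR-ABL fusion kinase. One group of 3 arrays came from cells kept for 3 h in DMSO, the solvent, and the other group of 3 from cells kept for 3 h in 25 nM CA. The series title names CA as cortistatin A, a natural product that blocks CDK8 and CDK19, the kinases of the Mediator complex. The groups share the cell line, the plating and the time, no treatment other than CA separates them in the labels, and the labels do not say which of the RNA extraction methods they name was used for which sample. The wells were triplicates of a single line in a single experiment, so the p-values measure the spread between these samples, which may be technical.

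Passage into mitosis is driven by the kinase CDK1 with cyclin B or cyclin A, and exit by the anaphase-promoting complex, which marks cyclin B and securin for destruction. Between these steps the chromosomes are compacted, attached to the spindle through kinetochores and held by the spindle checkpoint until every chromosome is attached. Most of the genes for this machinery are transcribed late in the cycle. The MuvB core binds them at a short promoter element, the cell cycle genes homology region or CHR, together with B-MYB and FOXM1 in cycling cells and with the DREAM repressor in resting cells. CCAAT boxes bound by NF-Y usually lie upstream of it.

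Most promoters of the set held the letters of both elements. RefSeq promoter windows of GRCh38.p14, each from 250 bases before to 50 bases after an annotated start, were at hand for 37 of the 45 genes. AURKA, UBE2C, RACGAP1, BUB3, TTK, BIRC5, TPX2 and FOXM1 were not matched. The letters TTTGAA, the only form of the CHR core searched for, stood on either strand in 27 of the 37 (73.0%). They stood in 4961 of all 27305 genes with a window (18.2%). CCAAT on either strand stood in 31 of the 37 (83.8%), against 39.7% of all genes, and both motifs stood in 23 (62.2%), against 8.4%. With only the first listed window of each gene the shares were 70.3%, 75.7% and 56.8%, against 15.4%, 35.7% and 6.1%. The sequences below are the 150 bases that end just before the annotated start, written 5′ to 3′ on the gene's strand with TTTGAA and CCAAT, or ATTGG where CCAAT is on the other strand, in capitals. CDC20 (chr1:43358831-43358980, plus strand), CCNB2 (chr15:59104996-59105145, plus) and PLK1 (chr16:23678739-23678888, plus) are shown as examples with both motifs. CENPE (chr4:103198344-103198493, minus) and KIF20A (chr5:138178962-138179111, plus) are shown because they had the smallest p-values among the genes with a window.
CDC20: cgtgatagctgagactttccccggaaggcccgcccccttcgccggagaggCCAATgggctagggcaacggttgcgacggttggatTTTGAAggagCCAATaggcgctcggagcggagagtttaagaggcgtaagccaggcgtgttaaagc
CCNB2: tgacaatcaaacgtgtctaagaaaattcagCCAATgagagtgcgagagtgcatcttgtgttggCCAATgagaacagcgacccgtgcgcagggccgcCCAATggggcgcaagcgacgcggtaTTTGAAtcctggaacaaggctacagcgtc
PLK1: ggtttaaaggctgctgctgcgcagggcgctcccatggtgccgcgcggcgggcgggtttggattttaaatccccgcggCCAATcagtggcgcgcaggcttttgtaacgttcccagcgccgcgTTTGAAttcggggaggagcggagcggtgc
CENPE: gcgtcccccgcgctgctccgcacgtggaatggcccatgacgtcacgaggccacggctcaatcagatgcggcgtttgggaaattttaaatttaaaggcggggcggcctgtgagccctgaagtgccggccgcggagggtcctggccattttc
KIF20A: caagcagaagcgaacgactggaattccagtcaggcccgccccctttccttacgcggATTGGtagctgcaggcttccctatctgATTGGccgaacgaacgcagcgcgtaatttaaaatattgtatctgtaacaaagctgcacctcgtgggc
In CCNB2 and in PLK1 the TTTGAA lies 29 to 24 bases before the start, and in CDC20 it lies 65 to 60 bases before it. CCNB2 carries CCAAT boxes that begin 120, 87 and 54 bases upstream. KIF20A has only ATTGG in this stretch, beginning at 94 and 67 bases upstream, and in the CENPE window neither set of letters was found. A match of letters is a description and not a bound site.

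After 3 h in CA the RNA of the G2/M and mitosis genes lay close to its level in DMSO. Of the 45 genes, 44 had a probe set bright enough to test, and 0 of the 44 passed an adjusted p of 0.05 in limma, where the smallest was 0.480. Over all 12810 genes tested, 11 passed (0.0859%), 8 of them higher and 3 lower in CA. The fitted changes of the 44 genes ran from -0.069 for CKS2 to 0.20 for PLK1 on the log2 scale, that is from 0.953-fold to 1.15-fold. Their median was 0.026, beside -0.012 for all genes tested. A gene was represented by its brightest tested probe set, and a probe set was tested where its mean over the 6 arrays reached 3.49, the median of such means. Changes are CA minus DMSO, in log2 units, with 95% confidence intervals from the fit. In bulk RNA, fewer cells in G2 or mitosis and less of these RNAs per cell cannot be told apart.

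The intervals were narrow. For 40 of the 44 genes (90.9%) the whole interval lay within 1.25-fold of no change in both directions, against 79.5% of all genes tested. That count holds for the deposited scale: it was 34 (77.3%, against 71.8% of all genes) after scaling to the 5′ probe sets of the polyadenylated control RNAs and 4 (9.09%, against 27.5%) after scaling to their 3′ probe sets. On the deposited scale the exceptions were PLK1, CENPE, INCENP and KIF23, whose upper bounds passed 1.25-fold. The median standard error of a change was 0.045 for the 44 genes and 0.061 for all genes, and the median residual SD was 0.039 and 0.075. For scale, 3 of the 11 genes called in the same fit, all outside the set, were EGR1, an immediate early transcription factor, at -1.80, TXNIP, an inhibitor of thioredoxin, at -1.17, and MYC at 0.50.

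**Figure D1:**
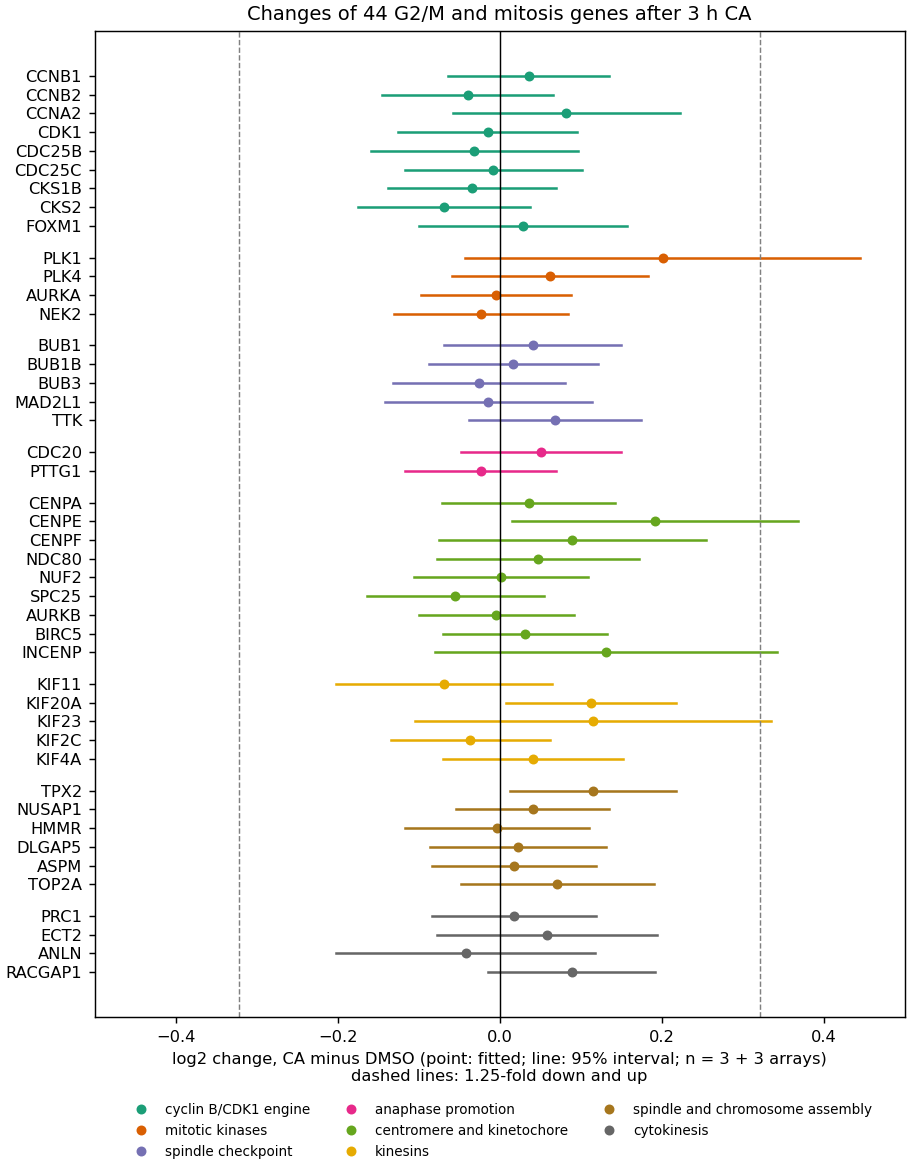
Fitted log2 change (CA minus DMSO, horizontal axis) of the 44 tested genes, grouped by role; points are the fitted change, lines the 95% interval from 3 arrays in each group, and dashed lines mark 1.25-fold. Only the lines of CENPE, KIF20A and TPX2 lie clear of 0, and only those of PLK1, CENPE, INCENP and KIF23 cross a dashed line.

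At an unadjusted p under 0.05 there were 3 of the 44 genes (6.82%), where 8.61% of all genes tested were that low. The 3 were CENPE, KIF20A and TPX2, and each was higher in CA. With DMSO array 1 left out TPX2 alone stayed at that p, with DMSO array 2 left out CENPE alone, and with DMSO array 3 or CA array 2 left out 0 genes of the set did. Of all genes, 3.59% were higher and 5.02% lower at that p. By the arrays alone, the 3 CA values lay above all 3 DMSO values for CDC20, CENPE, KIF20A, TPX2, NUSAP1 and RACGAP1, 6 of 44 (13.6%), against 6.14% of all genes. They lay below them for CKS2 only (2.27%), against 9.95% of all genes. A fitted change above 0 was found for 27 of the 44 (61.4%), against 43.5% of all genes. These counts moved with small shifts of the arrays. After centring each array on its median, 33 changes (75%) lay above 0, against 52.3% of all genes. The CA values then lay above the DMSO values for 10 members (22.7%, against 8.63% of all genes) and below for 0 (against 7.31%).

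**Figure D2:**
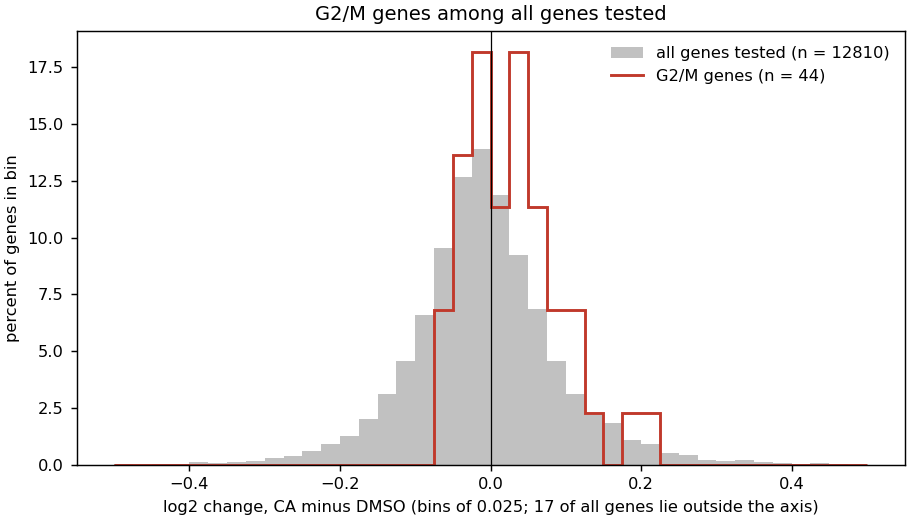
Share of genes (percent, vertical axis) by fitted log2 change (bins of 0.025, horizontal axis) for the 44 G2/M and mitosis genes (red line) and all 12810 genes tested (grey). The members lie between -0.069 and 0.20 with a median of 0.026, and the grey distribution has a median of -0.012.

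CA array 1 lay apart from the other arrays, at -19.0 on the second principal component (24.4% of the variance), where the others lay between 0.338 and 7.20. It also carried the highest level of these genes: the median deviation of the 44 genes from their 6-array means was 0.034 on it, against 0.0024 and -0.010 on the other CA arrays and -0.017, 0.0076 and -0.020 on the DMSO arrays. All genes tested had medians between -0.012 and 0.0074 on the 6 arrays. Without CA array 1 the members' median change was 0.0068, beside -0.018 for all genes. Then 24 of 44 changes (54.5%) lay above 0, against 41.9% of all genes. With it left out, 0 genes of the set were called, and CENPE and TPX2 were still at an unadjusted p under 0.05. CA values lay above DMSO values for 7 members (15.9%, against 11.3% of all genes) and below for 4 (9.09%, against 20.1%).

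**Figure D3:**
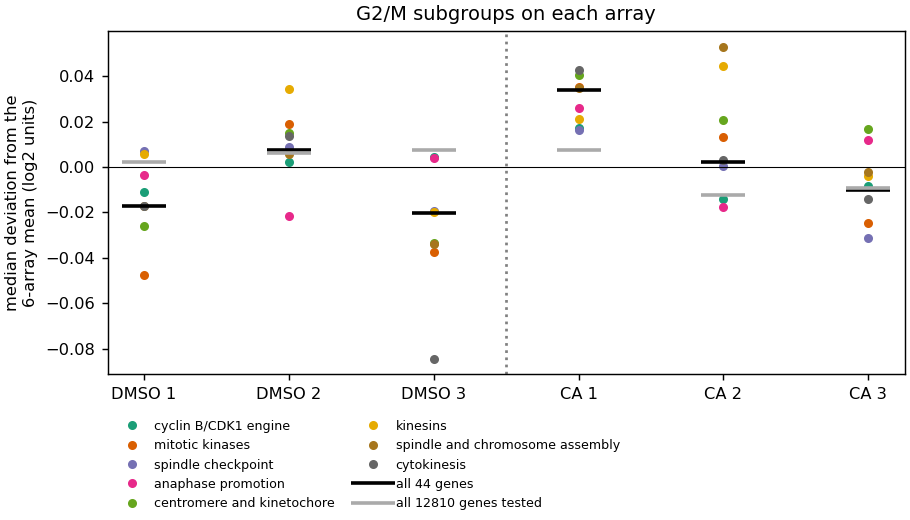
Median deviation from the 6-array mean (log2 units, vertical axis) on each array for each subgroup (coloured points), for the 44 genes (black bars) and for all 12810 genes tested (grey bars). CA array 1 has the highest black bar, 0.034, and the CA arrays 2 and 3, at 0.0024 and -0.010, lie within the range of the DMSO arrays.

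A measure of labelling moved with the groups as well. The 3′ minus 5′ signal of the ACTB control probe sets, a sign of RNA length and of how far labelling reached from the poly(A) tail, was 1.45 ± 0.044 in DMSO and 1.21 ± 0.092 in CA (SD, n = 3). The groups did not overlap, and the 2-sided exact permutation p was 0.1, the smallest that 3 against 3 arrays can give. For GAPDH it was 0.636 ± 0.014 and 0.604 ± 0.023 (exact p = 0.2). Its part in the results on the mitotic genes was not tested. The 3′ probe sets of the polyadenylated control RNAs also differed, with 8.24, 8.33 and 8.37 in DMSO and 8.17, 8.08 and 8.10 in CA. Scaling the arrays to them raised the median change of all genes to 0.18 and that of the 44 genes to 0.22, and all 44 then lay above 0, as did 97% of all genes. After that scaling 13 of 44 members (29.5%) were called higher, against 11.5% of all genes, 1467 higher and 5 lower. The 13 were CCNB1, CCNA2, PLK1, PLK4, BUB1, CDC20, CENPE, NDC80, KIF20A, TPX2, NUSAP1, TOP2A and RACGAP1. The 5′ probe sets of the same controls, at 6.48, 6.51 and 6.61 in DMSO and 6.60, 6.50 and 6.39 in CA, left 0 members called after scaling, with 41 of 44 changes (93.2%) above 0, against 66.4% of all genes. The deposited values were brought to a common distribution by the authors' normalisation, so a shift shared by most RNAs is not visible in them.

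The engine of mitotic entry lay close to its level in DMSO. At an unadjusted p under 0.05 there were 0 of 9 genes, against 8.61% of all genes, a share at which 0 of 9 says little. CCNB1 encodes cyclin B1, which activates CDK1 and sets the time of entry. It read 10.60, 10.65 and 10.64 in DMSO and 10.69, 10.64 and 10.69 in CA, a change of 0.036 (-0.063 to 0.14, limma adjusted p = 0.846), and the groups overlapped. Its other probe set gave the same change, 0.036. CDK1 itself had 11.65, 11.68 and 11.68 in DMSO and 11.71, 11.65 and 11.60 in CA, a change of -0.015 (-0.13 to 0.096). CCNB2, the second B-type cyclin, was at -0.040 and CCNA2, cyclin A2 of S and G2 phase, at 0.082. The phosphatases that remove the inhibitory phosphates of CDK1 lay at -0.031 (CDC25B) and -0.0079 (CDC25C). Other tested probe sets of these genes lay at -0.058 for CCNB2, -0.043 for CDC25C and from -0.17 to 0.018 for CDK1. That of CCNA2 lay at 0.094, with every CA array above every DMSO array. FOXM1, the forkhead activator of the late genes, read 6.32, 6.33 and 6.36 in DMSO and 6.42, 6.27 and 6.41 in CA, a change of 0.029.

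The CDK-binding subunits CKS1B and CKS2 had changes of -0.034 and -0.069. CKS2 read 11.19, 11.11 and 11.11 in DMSO and 11.07, 11.07 and 11.06 in CA (limma adjusted p = 0.699). Its groups did not overlap, although the gap between the nearest arrays was smaller than the spread of the DMSO arrays. In this subgroup 3 of 9 changes lay above 0 and 6 below, with a median of -0.015. After centring each array on its median the split was 5 above and 4 below.

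Among the mitotic kinases, PLK1 had the highest fitted change of the whole set. PLK1 acts at entry, at centrosomes and in cytokinesis. It read 5.90, 6.08 and 6.02 in DMSO and 6.42, 6.12 and 6.07 in CA, a change of 0.20 (-0.043 to 0.45, limma adjusted p = 0.613). The groups overlapped, and CA array 1 alone stood clear of the rest. Without that array the change was 0.092. PLK4, which starts centriole duplication, was at 0.062, AURKA, the kinase of centrosome maturation, at -0.0041, and the centrosomal kinase NEK2 at -0.023. On the brightest probe sets AURKA varied least of these kinases, with 10.31, 10.31 and 10.33 in DMSO and 10.33, 10.31 and 10.30 in CA. Another AURKA probe set lay at 0.035, with every CA array above every DMSO array. A dim one lay at -0.053 and varied more (SD 0.37 in CA). Other tested probe sets of PLK4 and NEK2 lay at -0.035 and 0.20.

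The spindle checkpoint genes lay between -0.025 and 0.069, with a median of 0.017. Without CA array 1 the median was -0.0030, with 2 changes above 0 and 3 below. BUB1, a kinetochore kinase that recruits the other checkpoint proteins, read 9.16, 9.17 and 9.22 in DMSO and 9.27, 9.18 and 9.21 in CA, a change of 0.041 (-0.069 to 0.15, limma adjusted p = 0.843). The groups overlapped, and without CA array 1 the change was 0.015. BUB1B, the BubR1 pseudokinase of the checkpoint complex, was at 0.017, its partner BUB3 at -0.025, MAD2L1, the Mad2 protein that holds back CDC20, at -0.014, and the checkpoint kinase TTK, also called MPS1, at 0.069.

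Of the genes of anaphase promotion, CDC20 is the activator that brings substrates to the anaphase-promoting complex. It read 10.19, 10.19 and 10.21 in DMSO and 10.29, 10.22 and 10.25 in CA, a change of 0.051 (-0.048 to 0.15, limma adjusted p = 0.769). The CA arrays lay just above the DMSO arrays. PTTG1, securin, which keeps separase inactive, was at -0.023. UBE2C, the ubiquitin-conjugating enzyme of that complex, was the member that could not be tested. Its only probe set read 3.12, 3.05 and 2.79 in DMSO and 2.88, 3.33 and 3.12 in CA, below the signal needed.

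The centromere and kinetochore genes had 7 of 9 changes above 0 (77.8%, against 43.5% of all genes), with a median of 0.036. Without CA array 1 there were 6 of 9, with a median of 0.014 and CENPA at 0.012. CENPA, the histone H3 variant that marks the centromere, read 7.82, 7.83 and 7.87 in DMSO and 7.92, 7.88 and 7.83 in CA, a change of 0.036 (-0.071 to 0.14, limma adjusted p = 0.861), with overlapping groups. CENPE, the kinesin that carries chromosomes along microtubules to the spindle equator, read 6.47, 6.67 and 6.52 in DMSO and 6.69, 6.86 and 6.69 in CA. Its change was 0.19 (0.015 to 0.37), or 1.14-fold, with an unadjusted p of 0.0371 and a limma adjusted p of 0.497. The groups did not overlap, but DMSO array 2 came within reach of the lower CA arrays. Without CA array 1 the change was 0.22, and without CA array 2 it was 0.14.

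The other members of this subgroup lay between -0.055 and 0.13. CENPF, a large kinetochore protein, was at 0.090. The parts of the NDC80 complex, which grips the microtubule, lay at 0.047 (NDC80), 0.0017 (NUF2) and -0.055 (SPC25). The chromosomal passenger complex corrects faulty attachments: its kinase AURKB was at -0.0039, BIRC5 (survivin) at 0.031 and the scaffold INCENP at 0.13 (-0.080 to 0.34). INCENP read 5.75, 5.65 and 5.42 in DMSO and 5.79, 5.73 and 5.69 in CA, where DMSO array 3 was the low one.

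Among the kinesins, KIF11, the Eg5 motor that pushes spindle poles apart, read 8.14, 8.23 and 8.11 in DMSO and 8.14, 8.12 and 8.01 in CA, a change of -0.069 (-0.20 to 0.065, limma adjusted p = 0.770). The groups overlapped, and the change was -0.034 without DMSO array 2 and -0.030 without CA array 3. It was 0.13 under scaling to the 3′ control probe sets, which moves every gene by the same amount. KIF20A, which takes the passenger complex to the central spindle, read 8.11, 8.15 and 8.10 in DMSO and 8.25, 8.27 and 8.18 in CA. The change was 0.11 (0.0083 to 0.22), or 1.08-fold, with an unadjusted p of 0.0382 and a limma adjusted p of 0.501, and every CA array lay above every DMSO array. KIF23, the motor of centralspindlin, was at 0.12, the microtubule depolymeriser KIF2C at -0.036 and the chromokinesin KIF4A at 0.041. KIF23 read 7.25, 7.30 and 7.01 in DMSO and 7.40, 7.33 and 7.19 in CA, so that its change was smaller than the range of either group.

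TPX2 had the smallest unadjusted p of the set, 0.0326. TPX2 activates AURKA and nucleates microtubules around chromosomes. It read 9.25, 9.17 and 9.20 in DMSO and 9.30, 9.33 and 9.33 in CA, a change of 0.12 (0.013 to 0.22), or 1.08-fold, with a limma adjusted p of 0.480. The groups did not overlap. NUSAP1, a microtubule bundler, read 9.95, 9.96 and 9.99 in DMSO and 10.03, 10.00 and 10.00 in CA, a change of 0.041, with groups that stood apart by a small margin. Of the other genes of spindle and chromosome assembly, HMMR was at -0.0030 and the microtubule stabiliser DLGAP5 at 0.023. The spindle pole protein ASPM was at 0.018 and TOP2A, the topoisomerase that disentangles sister chromatids, at 0.071. Second tested probe sets of HMMR (0.11) and TOP2A (0.067) had every CA array above every DMSO array. That of NUSAP1 lay at -0.021 with overlapping groups, and those of ASPM lay at 0.022 and -0.071.

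In the cytokinesis genes, PRC1, which bundles the microtubules of the central spindle, read 9.58 on each DMSO array and 9.65, 9.57 and 9.58 in CA, a change of 0.017 (-0.084 to 0.12, limma adjusted p = 0.936). The CA mean was above that of DMSO through CA array 1, and without it the change was -0.0075. RACGAP1, the GTPase-activating partner of KIF23, read 9.50, 9.51 and 9.44 in DMSO and 9.55, 9.60 and 9.57 in CA, a change of 0.089 (-0.014 to 0.19, limma adjusted p = 0.593), with no overlap of the groups. ECT2, which activates RhoA at the cleavage furrow, was at 0.059 and the furrow scaffold ANLN at -0.042.

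**Figure D4:**
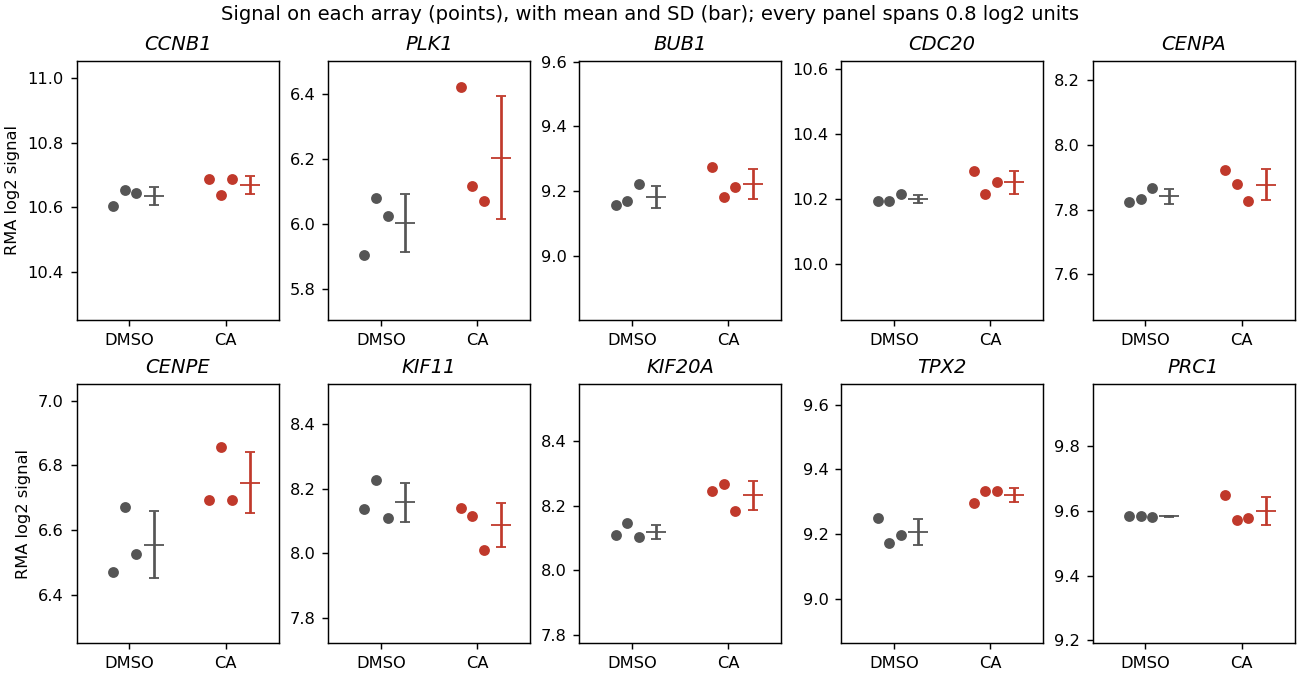
RMA log2 signal (vertical axis; each panel spans 0.8 log2 units) on each of the 3 DMSO (grey) and 3 CA (red) arrays for 10 genes, with the mean and SD beside the points. CA and DMSO points stand apart in the panels of CDC20, CENPE, KIF20A and TPX2, and the PLK1 panel shows 1 high CA array at 6.42.

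Several genes were read by more than 1 tested probe set, and these did not always agree. Of 21 such genes, 13 had probe sets on both sides of 0. The median range of changes within a gene was 0.089. The median distance from 0 of the 44 members, each by its brightest probe set alone, was 0.040. These are unlike measures, since a range spans 2 to 6 probe sets of a gene, some of them dim. The range was widest for BUB1, at 0.32. There a second, dimmer probe set read 5.68, 5.71 and 5.64 in DMSO and 6.20, 6.19 and 5.74 in CA, a change of 0.37 (unadjusted p = 0.0250, limma adjusted p = 0.443), against 0.041 for the brightest one. CA array 3 stood close to the DMSO arrays on it. Among the 33 tested probe sets that did not represent their gene, 3 had an unadjusted p under 0.05. The other two were a second AURKB probe set, at 4.19, 4.33 and 4.31 in DMSO and 4.39, 4.43 and 4.58 in CA (0.19, limma adjusted p = 0.469), and a dim BUB3 probe set, at 4.31, 4.18 and 4.07 in DMSO and 3.91, 4.05 and 4.01 in CA (-0.19, limma adjusted p = 0.489). Both genes lay near 0 on their brightest probe sets, at -0.0039 and -0.025. With probe sets that can match more than 1 transcript left out (names ending in _s_at or _x_at), 30 members were tested, 0 were called, and BUB3, through that dim probe set, and CENPE were at an unadjusted p under 0.05.

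**Figure D5:**
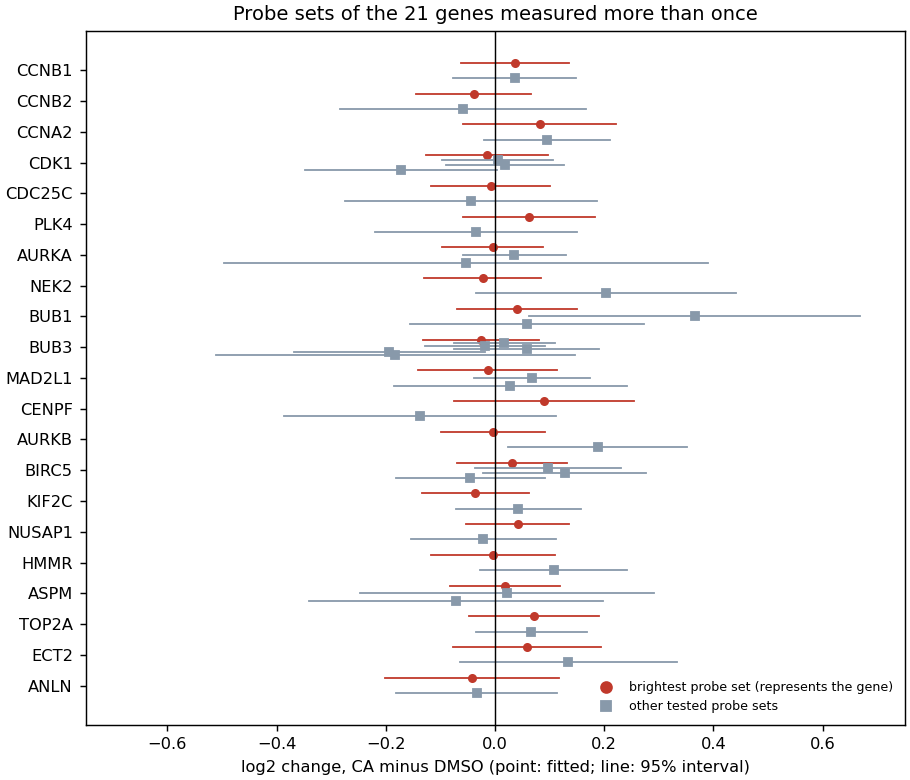
Fitted log2 change (CA minus DMSO, horizontal axis) with its 95% interval for each tested probe set of the 21 genes with more than 1; red circles are the brightest probe set of a gene and grey squares the others. The intervals of 1 square each of BUB1, AURKB and BUB3, at 0.37, 0.19 and -0.19, leave out 0, and squares of NEK2 (0.20), BUB3 (-0.18), CDK1 (-0.17) and CENPF (-0.14) have intervals that hold it.

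Genes with and without the letters TTTGAA had medians close to each other. The median change was 0.018 for the 27 members with TTTGAA in the window and 0.016 for the 10 without it. None of the 27 and 2 of the 10, CENPE and KIF20A, had an unadjusted p under 0.05, against 8.61% of all genes. Only TTTGAA was searched for, so the split does not show that the 10 lack a CHR. The regulators that act through the CHR, in a list of 11 MuvB, DREAM and B-MYB genes, had a median change of -0.039. Of these, 0 were at an unadjusted p under 0.05 in either direction, against the same 8.61%.

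Other genes of the same pathways were counted by lists. Of 12 genes that control CDK1 at entry, 0 were higher and 2 lower at an unadjusted p under 0.05, with a median of -0.00067, against 3.59% higher and 5.02% lower of all genes. They were the CDK inhibitors CDKN1A (p21) at -0.21 and CDKN1B (p27) at -0.17, with limma adjusted p of 0.343 and 0.453. CDKN1A read 6.67, 6.59 and 6.67 in DMSO and 6.50, 6.35 and 6.46 in CA. Under the 5′ scaling 0 of the 12 were lower at that p, where 122 of all 12810 genes were. Under the 3′ scaling CDKN1A and CDKN1B lay at -0.010 and 0.025. Every CA array lay above every DMSO array for 3 of the 12 (25%, against 6.14% of all genes). For 2 (16.7%, against 9.95%) every CA array lay below. Under the 5′ scaling these counts were 3 (against 5.46%) and 0 (against 1.8%). Of 20 subunits and regulators of the anaphase-promoting complex, 4 changes were above 0 (20%, against 43.5% of all genes) and 16 below, with a median of -0.046. That split moved with the scaling. It was 9 above and 11 below after median centring (45% above, against 52.3% of all genes). Under the 5′ scaling it was 10 and 10 (50% above, against 66.4%, median -0.0035), and under the 3′ scaling 20 and 0 (against 97%). Every CA array lay below every DMSO array for 6 of the 20 (30%, against 9.95% of all genes). That count was 2 (10%, against 7.31%) after median centring. It was 0 under the 5′ scaling (against 1.8%) and under the 3′ scaling (against 0.219%). Of the 20, CDC26, a small subunit of the complex, alone had an unadjusted p under 0.05, at -0.12 (limma adjusted p = 0.530). It lay at 0.076 under the 3′ scaling.

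Cohesin, separase and condensin (20 genes) had a median of 0.020. SGO2, a protector of centromeric cohesion, at 0.098, was the only one at an unadjusted p under 0.05. At that p, 3.59% of all genes were higher and 5.02% lower. A further 25 kinetochore genes had a median of -0.0049, with CDCA8 (borealin of the passenger complex) at 0.16, and 21 further genes of mitotic kinesins and the midbody had a median of 0.0063, with DEPDC1 at 0.25. Limma adjusted p was 0.524, 0.530 and 0.247 for SGO2, CDCA8 and DEPDC1. DEPDC1 read 7.82, 7.68 and 7.80 in DMSO and 8.03, 8.05 and 7.98 in CA, and these groups did not overlap. It was called (adjusted p = 0.0197) in the limma fit whose prior variance follows the mean signal, which called 1.23% of all genes and 0 of the 44 members. Under the 3′ scaling SGO2, CDCA8 and DEPDC1 lay at 0.29, 0.36 and 0.45 and were called. That scaling called 3 of the 20, 3 of the 25 and 6 of the 21 genes, against 11.5% of all genes. Without CA array 1, SGO2 and CDCA8 no longer had an unadjusted p under 0.05. With all 6 arrays, every CA array lay above every DMSO array for 2 of the 20, 2 of the 25 and 4 of the 21. These were 10%, 8% and 19%, against 6.14% of all genes. Every CA array lay below for 0, 2 and 0 of them, against 9.95% of all genes.

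The genes of the G1/S transition and of replication, which are transcribed earlier in the cycle, had a median below 0. Of 28 genes tested, 5 changes were above 0 (17.9%, against 43.5% of all genes) and 23 below, with a median of -0.062. At an unadjusted p under 0.05, 0 were higher and 5 lower, against 3.59% and 5.02% of all genes. For 13 of the 28 (46.4%) every CA array lay below every DMSO array, against 9.95% of all genes. After median centring 10 (35.7%, against 7.31%) were apart in that way, and 15 (53.6%, against 20.1%) were without CA array 1. Median centring also left 5 lower at an unadjusted p under 0.05, as were 480 of all 12810 genes. Under the 5′ scaling 2 of the 28 (7.14%, against 1.8% of all genes) were apart in that way. There 1 of the 28 was lower at an unadjusted p under 0.05, as were 122 of all 12810 genes. Under the 3′ scaling both counts were 0, where 0.219% of all genes were apart in that way and 19 of 12810 lower at that p. CCNE2, cyclin E2, read 8.00, 8.25 and 7.97 in DMSO and 7.74, 7.78 and 7.63 in CA, a change of -0.36 (limma adjusted p = 0.304). The replication licensing factor CDT1 was at -0.22 and the transcription factor E2F2 at -0.20, both with a limma adjusted p of 0.247. None of the 28 was called in the fit reported here. With the prior variance that follows the mean signal, 3 genes, CCNE2 and CDT1 among them, were called, against 1.23% of all genes. Under the 3′ scaling the median of this list was 0.13, below the 0.18 of all genes, with 25 of 28 changes above 0. CCNE2 then lay at -0.16, CDT1 at -0.026 and E2F2 at -0.0024. Both sets of genes were read on the same 6 arrays, and the difference between them was not tested.

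The arrays bore the marks of the labelled line. The 9 K562 markers read here had means from 6.08 to 13.27, the highest for the embryonic globin HBE1. Markers of other cell types were read as well. Above the tested signal were 4 of 6 T-cell markers (the 6 from 2.39 to 9.07, highest for CD3D), 3 of 4 B-cell markers (2.70 to 4.70, highest for CD79A), 3 of 4 monocyte markers (2.58 to 8.88, highest for LYZ) and 3 of 5 fibroblast markers (2.15 to 6.94, highest for COL1A1). CD2, LCK, MS4A1, CD14, COL3A1 and LUM were below it. Their part in the results was not tested. The arrays correlated with each other at 0.997 over the probe sets. The number of arrays limits the precision of every value above.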

How the data were processed

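Expression was measured on Affymetrix U133 Plus 2.0 arrays, 3 DMSO and 3 CA, from biotin-labelled cRNA primed at the poly(A) tail, per the labels' protocols. The authors deposited log2 values for 54675 probe sets, made with RMA in the affy package, per the submitters' processing notes. Versions were not given in the sources used here. RMA subtracts background, equalises the distributions of the arrays and summarises probes, so dim probe sets are compressed and global shifts removed.

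Of these values, 62 control probe sets were left out of the fit and 27307 probe sets with a 6-array mean of at least 3.49 were tested. CA was compared with DMSO in limma 3.58.1 (R 4.3.3; lmFit, eBayes, 2-sided, no block), with Benjamini-Hochberg adjustment over all tested probe sets, and "called" means an adjusted p under 0.05. Symbols came from the platform annotation (41091 probe sets with 1 symbol, 1801 with several, 11721 unnamed), and the gene IDs of all 45 genes matched RefSeq. Shares over all genes count each gene once, by its brightest tested probe set.

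The genes, lists and tests were chosen with earlier results of these data known. Every measured gene of the set is named. Full values go to the first listed gene of each subgroup and to those at an unadjusted p under 0.05, and each further list names up to 3 genes at that p. Array values of other genes, and the promoters shown, were chosen after values were seen. Replicate numbers did not pair the samples: same-numbered deviations correlated at -0.070, 0.010 and 0.061. The fit was tested on simulated data. Alternatives were other filters, variances, scalings, probe set rules and each array left out; counts without CA array 1 and the list values under each scaling were added after the data were seen.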

Additional observations from a re-analysis of the deposited data

How the results depend on the processing

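No G2/M or mitosis gene was called in 16 of the 17 alternatives tried, and scaling to the 3′ control probe sets called 13. Most of these alternatives called few genes of any kind. Over all genes, 2 were called with no filter and 1 or 2 with 1 array left out. With probe sets that can match more than 1 transcript left out, 0 were called. In such fits, 0 members called says little about the set. The members' count at an unadjusted p under 0.05, 3 as reported, was 1 with no filter and 7 with a mean-dependent prior variance. It was 36 under the 3′ control scaling, where 6578 of all 12810 genes were higher and 19 lower at that p. The share of 8.61% of all genes belongs to the reported fit alone. For no filter, the mean-dependent prior variance, the replicate block or an array other than CA array 1 left out, no such share is given here. Counts from those fits therefore do not show whether the set differs from all genes. With 1 array left out the members' count was 0 to 4. It was 0 without DMSO array 3 or without CA array 2 and 1 without DMSO array 1 or 2. Without CA array 1 it was 2, where 584 of all 12810 genes were higher and 841 lower at that p. With a replicate block it was 1 (CENPE), and 0 of the 44 genes and 0 of all genes were called. That block used numbers which do not pair the samples.

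The median change, 0.026, was 0.22 under the 3′ and 0.068 under the 5′ control scaling, where that of all genes was 0.18 and 0.031. It was between 0.0068 and 0.041 elsewhere. KIF11 turned to 0.13 under the 3′ control scaling and PRC1 to -0.0075 without CA array 1. The other 8 genes with full values kept their sign in every alternative that measured them. Why the control scalings differ was not tested, and RMA values hold no measure of total RNA. The filter at the 75th percentile called 93 genes, 0 of them in this set, against 11 as reported.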
